A study of Mus musculus with 12 samples.

Results

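The genes described here are the glucocorticoid receptor Nr3c1, its relative the mineralocorticoid receptor Nr3c2, the 11-beta-hydroxysteroid dehydrogenases Hsd11b1 and Hsd11b2, and 5 genes known as glucocorticoid targets, Sgk1, Tsc22d3, Fkbp5, Per1 and Zbtb16. They were picked by gene symbol and are 9 of the 56691 genes in the count table. The cells were MC3T3-E1, a wild-type pre-osteoblast line from mouse calvarial bone, all of 1 line, and RNA was counted by a 3′ mRNA-seq method in 12 libraries, 3 in each of 4 groups. The labels describe 24 hours of 25(OH)D at 100 µM with 4 mM of added β-glycerophosphate (25(OH)D+BGP), of 25(OH)D with 100 µM ZK191784, a compound given by its code name (25(OH)D+ZK191784), or of 25(OH)D alone, started at day 27, against a control. Every group, the control included, had been in osteogenic medium until day 28, with 10% fetal bovine serum, 10 mM β-glycerophosphate, 50 µg/ml ascorbic acid and 0.1 µM dexamethasone, a synthetic glucocorticoid. There was therefore no group without glucocorticoid, and no group had ZK191784 or the added β-glycerophosphate without 25(OH)D. The 100 µM dose is printed as labelled and could not be checked from the counts.

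Glucocorticoids bind Nr3c1 in the cytoplasm, where chaperones and the co-chaperone Fkbp5 hold it, and the bound receptor moves to the nucleus and acts on genes near its binding elements. Hsd11b1 regenerates active glucocorticoid from its 11-keto form and Hsd11b2 does the reverse, so the balance of these enzymes sets how much natural hormone reaches the receptor inside a cell. Hsd11b2 is best known from the kidney, where it keeps glucocorticoid off Nr3c2. In bone, glucocorticoid in excess lowers osteoblast function, while dexamethasone at low dose is a common part of osteogenic media. 25(OH)D is the circulating form of vitamin D, which cells convert to the ligand of the vitamin D receptor Vdr.

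Promoter windows, from 250 bases before to 50 bases after a gene's start, came from RefSeq on build GRCm38.p6. For the 9 genes, windows of a single chromosome were left out, and the 14 windows kept covered 6 genes. Nr3c1, Hsd11b2 and Zbtb16 had no window among these, so nothing is said of their promoters. The 3 windows below, of 3 target genes, were picked because they hold letters of known regulatory elements, shown in capitals. In Sgk1, at chr10:21993640-21993939 on the + strand, the capitals mark AGAACA and TGTTCT with 3 bases between them, the palindrome of a glucocorticoid response element, 189 to 175 bases before the start. In Tsc22d3, at chrX:140600473-140600772 on the - strand, they mark a single TGTTCT, 185 to 180 bases before the start. In Per1, at chr11:69098699-69098998 on the + strand, they mark CACGTG, the E-box of the clock proteins, 166 to 161 bases before the start.
Sgk1: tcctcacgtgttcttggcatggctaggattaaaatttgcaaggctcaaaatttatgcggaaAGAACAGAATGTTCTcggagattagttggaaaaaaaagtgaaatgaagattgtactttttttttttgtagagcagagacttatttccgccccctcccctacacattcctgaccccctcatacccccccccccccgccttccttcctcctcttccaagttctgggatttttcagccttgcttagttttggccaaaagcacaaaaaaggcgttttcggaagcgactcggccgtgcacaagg
Tsc22d3: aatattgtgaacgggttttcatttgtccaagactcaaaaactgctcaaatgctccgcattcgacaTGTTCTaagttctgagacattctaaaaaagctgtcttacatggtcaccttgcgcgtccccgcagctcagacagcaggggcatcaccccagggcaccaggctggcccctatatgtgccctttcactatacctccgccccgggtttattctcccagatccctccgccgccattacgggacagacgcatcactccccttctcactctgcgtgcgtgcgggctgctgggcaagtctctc
Per1: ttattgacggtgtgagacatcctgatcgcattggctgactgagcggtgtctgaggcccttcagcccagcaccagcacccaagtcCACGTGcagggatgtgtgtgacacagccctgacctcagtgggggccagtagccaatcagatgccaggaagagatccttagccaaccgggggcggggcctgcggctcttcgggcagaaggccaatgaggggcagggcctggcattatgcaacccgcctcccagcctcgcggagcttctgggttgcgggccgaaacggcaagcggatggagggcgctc

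Both strands were searched, and each arm of the palindrome is itself a TGTTCT on one strand. The palindrome was in 3 of 32851 promoter windows of all genes, which is 0.00913%, and the Sgk1 window shown was 1 of them and the only one of the 6 windows of Sgk1. That window also holds a further TGTTCT and a CACGTG, left in lower case. TGTTCT was in 4 of the 14 windows, beside 19% of all windows, and CACGTG in 3, beside 7.15%. The Fkbp5 window and the other Tsc22d3 windows held neither the palindrome nor TGTTCT. The direct repeat of the vitamin D response element, searched by its exact consensus, was in 0 of the 14 windows and in 0.0396% of all windows. A match describes letters in a window and does not show that a factor binds there.

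The libraries held 3318723 to 5170980 counts each, and 14394 genes had enough counts to be tested with edgeR's quasi-likelihood test, with p-values adjusted by the Benjamini-Hochberg method over all of them and called under 0.05. The labels name no separate cultures, so these p-values measure the spread between libraries, which may be technical. Within groups the libraries lay along 1 axis, which held 58.9% of the within-group variance. A library ratio was taken to describe this axis, the log2 of the counts in ribosomal protein genes over those in ribosomal pseudogenes and Gm-numbered genes, which was highest in 25(OH)D+BGP replicate 2, 25(OH)D+ZK191784 replicate 1, 25(OH)D replicate 1 and control replicate 3, at -0.46, -0.80, -0.46 and -0.59, and lay between -1.80 and -1.14 in the other 8 libraries. The library with the highest ratio was also at the high end of the axis in all 4 groups. The 8 osteoblast and osteocyte markers were detected in every group, with a summed level of 4998 to 6102 CPM (counts per 1000000 counts of the library) in 25(OH)D+BGP, 17563 to 25184 CPM in 25(OH)D+ZK191784, 4792 to 7772 CPM in 25(OH)D and 33379 to 54120 CPM in the control. Most of the control sum was Col1a1 and Ibsp, with means of 27006 and 13676 CPM. Alpl and Dmp1 instead averaged higher in 25(OH)D+BGP, at 45.5 and 10.2 CPM, than in control, at 25.2 and 2.52 CPM, and the other markers averaged lower. The 5 blood cell markers summed to 153 to 335 CPM, 174 to 344 CPM, 160 to 313 CPM and 183 to 399 CPM in the same 4 groups. Cdh5, an endothelial marker, and Myog, a muscle marker, were at 0 in all groups, but other markers of their lists were not. The 3 endothelial markers together summed to 22.1 to 47.4, 24.8 to 55.9, 16.8 to 41.2 and 25.9 to 61.6 CPM. The 4 muscle markers summed to 27.2 to 84.1, 34.6 to 74.1, 30.8 to 79.0 and 38.3 to 89.0 CPM, in the same order, nearly all of it Acta1. Whether fewer cells of a type or less RNA per cell lies behind a level cannot be told apart in bulk RNA, and the part of these values in the results below was not tested.

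Of the 9 genes, Hsd11b2 had the largest difference between groups. It was read in every library that had 25(OH)D without ZK191784, in 1 of 3 libraries with ZK191784, and in no control library. The counts were 12, 50 and 32 in 25(OH)D+BGP, 1, 0 and 0 in 25(OH)D+ZK191784, 46, 54 and 22 in 25(OH)D, and 0, 0 and 0 in the control. On the CPM scale, with TMM-scaled library sizes, these were 3.37, 10.7 and 6.17 in 25(OH)D+BGP, 0.205, 0 and 0 in 25(OH)D+ZK191784, and 12.3, 13.0 and 5.81 in 25(OH)D. The libraries of the 2 high groups overlapped with each other, and none of them overlapped with the libraries of 25(OH)D+ZK191784 or the control.

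Hsd11b2 averaged 10.4 ± 3.97 CPM in 25(OH)D (SD, n = 3). Against the 3 counts that a count of 0 allows over the whole control group, the 122 counts of the 25(OH)D group were 45.7-fold higher. With the counting error of both groups, the lower 95% limit of the ratio was 36.6. The rise passed edgeR's test at an adjusted p of 0.000463. The 25(OH)D+BGP libraries averaged 6.75 ± 3.70 CPM (SD, n = 3), and their counts were 30.6-fold higher than the same 3 counts for the control. The lower 95% counting limit of that ratio was 24.4, and the edgeR adjusted p was 0.000981. With ZK191784 added, Hsd11b2 fell to 1 count, against 122 counts with 25(OH)D alone, a ratio of 0.00702 with a 95% counting interval of 0.000176 to 0.0398 and an edgeR adjusted p of 0.00161. Counting intervals and limits cover counting error only, and the edgeR p-values are for a gene that the filter kept through its high groups. Between 25(OH)D+ZK191784 and the control no fold is given, because both groups were under 3 counts.

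The 25(OH)D+BGP and 25(OH)D libraries did not differ beyond their spread in Hsd11b2, with a log2 difference of -0.61 ± 0.50 (SE), a 95% interval of -1.72 to 0.50 and an edgeR adjusted p of 1.00. That difference was -0.30 without 25(OH)D+BGP replicate 1, -1.08 without 25(OH)D+BGP replicate 2 and -0.41 to -0.89 without 1 of the other libraries of these groups, never past edgeR's threshold. The order of the group means was 25(OH)D, 25(OH)D+BGP, 25(OH)D+ZK191784 and control, and only the step between 25(OH)D+BGP and 25(OH)D+ZK191784 separated libraries without overlap. Hsd11b2 passed the filter on low counts through the 25(OH)D+BGP and 25(OH)D groups, and a gene so kept had to differ from a group at 0. The 3 calls of Hsd11b2 held in all 13 alternative analyses of each comparison, with adjusted p-values up to 0.00582 for 25(OH)D against control, 0.0127 for 25(OH)D+BGP against control and 0.0134 for 25(OH)D+ZK191784 against 25(OH)D. Every alternative drew on the same groups at or near 0 counts, so this agreement is not separate support.

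The opposing enzyme Hsd11b1 was at the edge of detection. It had 0, 0 and 7 counts in 25(OH)D+BGP, 0, 1 and 2 in 25(OH)D+ZK191784, 0, 2 and 1 in 25(OH)D, and 0 in each control library. Most of its counts came from 25(OH)D+BGP replicate 3, and every group with 25(OH)D had at least 1 library at 0, so all groups overlapped. The mineralocorticoid receptor Nr3c2 was also rare, with 4, 5 and 7 counts in 25(OH)D+BGP, 0, 11 and 2 in 25(OH)D+ZK191784, 0, 5 and 2 in 25(OH)D and 8, 6 and 1 in the control. Its groups overlapped in every comparison. Neither gene had enough counts for the edgeR fit, and the exact two-sided permutation tests of their CPM in the 5 comparisons, 10 tests in all, gave p-values of 0.3 to 1, each 1 after Benjamini-Hochberg adjustment. With 3 libraries against 3 the smallest p such a test allows is 0.1, so a difference was not detectable here.

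The glucocorticoid receptor itself was measured well and lay close in all groups. Nr3c1 had 282, 400 and 323 counts in 25(OH)D+BGP, 340, 305 and 362 in 25(OH)D+ZK191784, 275, 255 and 237 in 25(OH)D, and 331, 319 and 269 in the control. These were means of 75.7 ± 12.0, 73.9 ± 4.57, 65.9 ± 6.67 and 70.2 ± 8.11 CPM (SD, n = 3 each) in the same order, and the libraries of neighbouring groups overlapped. The log2 difference was -0.09 ± 0.16 (SE) between 25(OH)D and control, with a 95% interval of -0.44 to 0.25, and 0.17 ± 0.16 between 25(OH)D+ZK191784 and 25(OH)D, with an interval of -0.18 to 0.51. Neither passed edgeR's test, and the intervals leave room for modest differences in both directions.

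**Figure D1:**
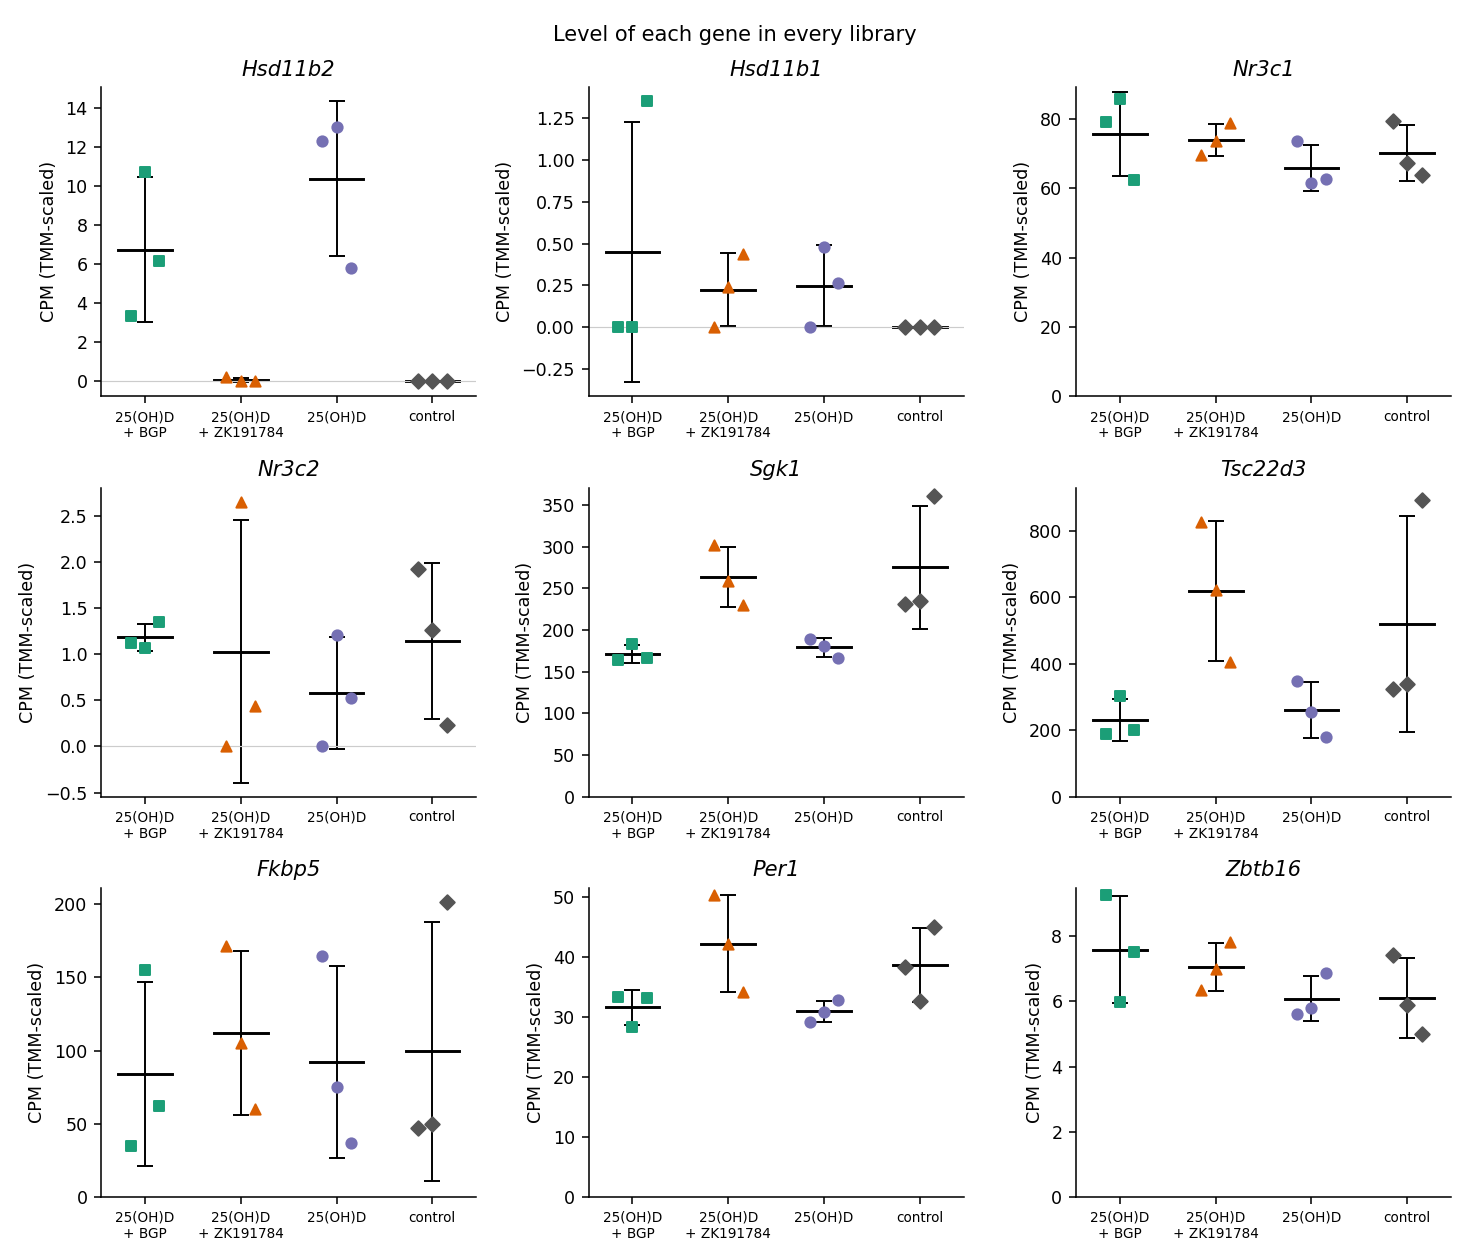
Level of each of the 9 genes in CPM with TMM-scaled library sizes, 1 point per library (n = 3 per group), with the group mean as a line and ± 1 SD as bars, which can reach below 0 for the rare genes. Hsd11b2 stands at 3.37 to 13.0 CPM in the 25(OH)D+BGP and 25(OH)D libraries and at or near 0 in the others, and Sgk1 libraries of those groups all lie below 190 CPM, under every library of the other groups.

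Among the target genes, Sgk1, a kinase that promotes sodium uptake through epithelial channels and is known as a fast glucocorticoid and mineralocorticoid target, split the groups the other way round. It measured 164, 184 and 166 CPM in 25(OH)D+BGP, 302, 259 and 230 CPM in 25(OH)D+ZK191784, 190, 181 and 167 CPM in 25(OH)D, and 231, 235 and 361 CPM in the control. All 6 libraries with 25(OH)D and no ZK191784 were below all 6 of the others, and within each of these sets of 6 the groups overlapped. This split was not among the comparisons tested, and the share of all genes that split so was not counted. Sgk1 averaged 171 ± 11 CPM in 25(OH)D+BGP, against 276 ± 73.9 CPM in the control (SD, n = 3 each), and fell by 0.69 ± 0.18 on the log2 scale (SE), with an edgeR adjusted p of 0.0331.

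With 25(OH)D alone, Sgk1 averaged 179 ± 11.7 CPM (SD, n = 3), a log2 difference from the control of -0.62 ± 0.18 (SE) that missed edgeR's threshold at an adjusted p of 0.0522. With ZK191784 added, Sgk1 averaged 264 ± 36.0 CPM (SD, n = 3), a log2 difference from 25(OH)D alone of 0.56 ± 0.18 (SE, adjusted p = 0.149 by edgeR). The drop in 25(OH)D+BGP was lost without control replicate 3, the highest library, where the log2 difference was -0.42 (adjusted p = 0.0918), and without 25(OH)D+BGP replicate 1, 2 or 3 (adjusted p = 0.103, 0.0688 and 0.120). With the 2 groups fitted alone it was -0.67 and also did not pass (adjusted p = 0.165). The difference of 25(OH)D alone was -0.73 without control replicate 1, which passed edgeR's test (adjusted p = 0.0445), and -0.36 without control replicate 3, which did not (adjusted p = 0.133). Between 25(OH)D+ZK191784 and control the log2 difference was -0.06, with a 95% interval of -0.45 to 0.32, and its sign turned without control replicate 3 or without 25(OH)D+ZK191784 replicate 3.

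Tsc22d3 encodes GILZ, a leucine zipper protein known to carry part of the anti-inflammatory action of glucocorticoids. It measured 190, 303 and 202 CPM in 25(OH)D+BGP, 828, 622 and 406 CPM in 25(OH)D+ZK191784, 350, 255 and 179 CPM in 25(OH)D, and 324, 339 and 894 CPM in the control. The 25(OH)D+BGP libraries were all below the control libraries and the 25(OH)D+ZK191784 libraries all above the 25(OH)D libraries, while 25(OH)D and control overlapped through 25(OH)D replicate 1. How many of all genes separate in this way was not counted. The log2 differences were -1.17 ± 0.40 between 25(OH)D+BGP and control, 1.24 ± 0.40 between 25(OH)D+ZK191784 and 25(OH)D, and -0.99 ± 0.40 between 25(OH)D and control (SE). None passed edgeR's test (adjusted p = 0.112, 0.153 and 0.183). Without control replicate 3 the first and the last of these were -0.50 and -0.33.

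Fkbp5, the co-chaperone that slows the receptor and is itself induced by it, varied more within groups than between them. It measured 35.1, 155 and 61.9 CPM in 25(OH)D+BGP, 171, 105 and 60.0 CPM in 25(OH)D+ZK191784, 164, 75.2 and 37.0 CPM in 25(OH)D, and 47.2, 49.7 and 201 CPM in the control. All groups overlapped, and the highest library was 2.86 to 4.44 times the lowest within each group. Its within-group SD of 1.03 on the log2 scale was above that of 97.9% of tested genes. The log2 difference between 25(OH)D and control was -0.11 ± 0.70 (SE), with a 95% interval of -1.64 to 1.43. It was 0.93 without control replicate 3, 0.02 without 25(OH)D replicate 2 and 0.27 without 25(OH)D replicate 3, none of them past edgeR's threshold.

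Per1, a repressor of the circadian clock that glucocorticoids also induce, measured 33.4, 28.3 and 33.2 CPM in 25(OH)D+BGP, 50.4, 42.2 and 34.1 CPM in 25(OH)D+ZK191784, 29.2, 30.9 and 32.8 CPM in 25(OH)D, and 38.4, 32.7 and 45.0 CPM in the control. The 25(OH)D+ZK191784 libraries were all above the 25(OH)D libraries, a separation whose share over all genes was not counted. The log2 difference of Per1 was 0.45 ± 0.19 (SE) and did not pass edgeR's test (adjusted p = 0.350). Zbtb16, a zinc finger transcription factor known as strongly dexamethasone-induced in human cells of the osteoblast lineage, was low, with 33, 28 and 39 counts in 25(OH)D+BGP, 31, 29 and 36 in 25(OH)D+ZK191784, 21, 24 and 26 in 25(OH)D and 31, 28 and 21 in the control. Its group means lay between 6.09 and 7.59 CPM, and the 25(OH)D and control libraries overlapped. Per1 and Zbtb16 passed edgeR's test in none of the 5 comparisons.

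Of the 9 genes, 7 had enough counts for the fit. For 25(OH)D against control 1 of the 7 was called, Hsd11b2, beside 8.68% of all genes tested. For 25(OH)D+ZK191784 against 25(OH)D 1 was called, again Hsd11b2, beside 3.53% of all genes. For 25(OH)D+BGP against control 2 were called, Hsd11b2 and Sgk1, beside 8.25%. Against control, 25(OH)D+ZK191784 had 0 called, beside 0.723% of all genes. Against 25(OH)D, 25(OH)D+BGP had 0 called, beside 0% of all genes, and none of the 7 had an unadjusted edgeR p under 0.05, where 268 of all genes had one. With 7 genes, these counts are few to read against the background, and the filter had kept Hsd11b2 through its high groups. The comparisons share their 25(OH)D or control libraries and are not independent of each other.

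The median log2 difference of the 7 genes was -0.11 in 25(OH)D against control, beside -0.05 over all genes, and 0.28 in 25(OH)D+ZK191784 against 25(OH)D, beside 0.02. It was -0.24 in 25(OH)D+BGP against control, beside -0.05. These medians include Hsd11b2, which went against Sgk1 in each of these comparisons.

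Among the targets, 3 followed the library ratio, as the plot of level by library ratio shows. Fkbp5, Tsc22d3 and Sgk1 were each highest, in all 4 groups, in the library with the highest ratio, as were 2522 of all tested genes, which is 17.5%. Within groups Fkbp5 rose by 1.75 ± 0.08 on the log2 scale per log2 unit of the ratio, a slope above that of 98.8% of genes. The slope of Hsd11b2 was 1.02 ± 0.35, above 93.3% of genes. The slopes were 0.92 ± 0.09 for Tsc22d3, above 91.5% of genes, and 0.32 ± 0.08 for Sgk1, above 68.8% (SE). Nr3c1 had a slope of 0.02 ± 0.10 and Per1 of 0.10 ± 0.12 (SE). What sets the library ratio was not tested.

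**Figure D2:**
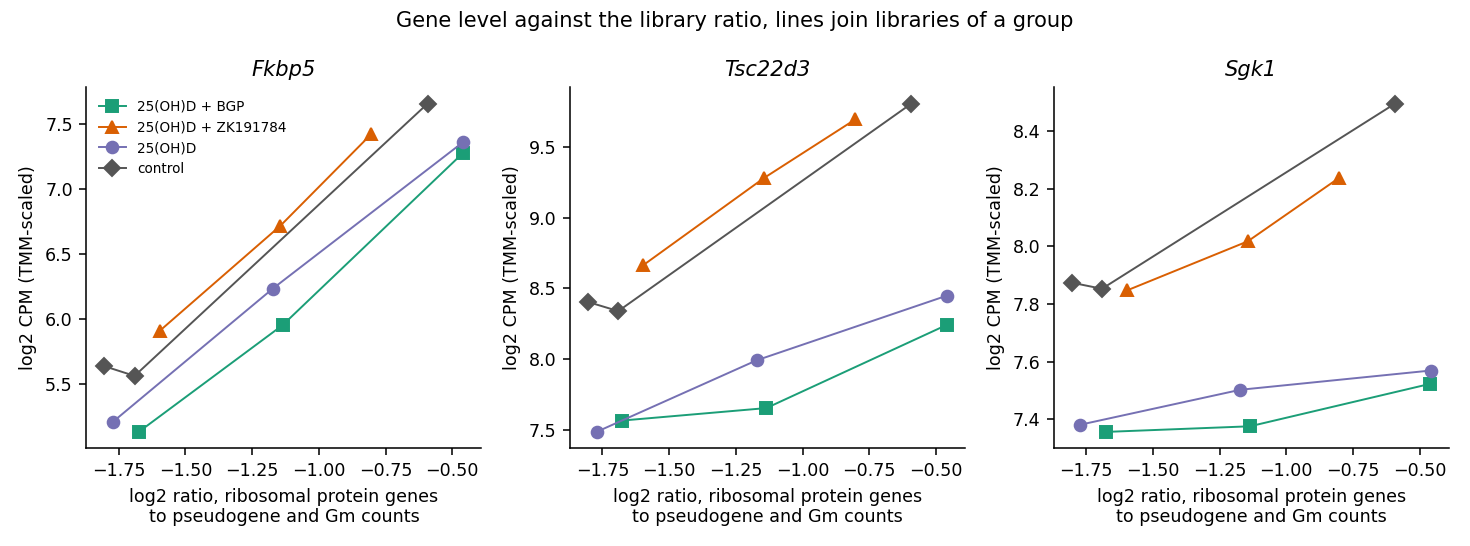
Level of Fkbp5, Tsc22d3 and Sgk1 as log2 CPM against the library ratio, the log2 of counts in ribosomal protein genes over those in ribosomal pseudogenes and Gm-numbered genes. Points are libraries and lines join the 3 libraries of a group. The steepest lines are those of Fkbp5, at 1.75 per log2 unit, and the 25(OH)D+BGP and 25(OH)D lines run below the 25(OH)D+ZK191784 and control lines in all 3 genes.

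When the edgeR model was given the library ratio as covariate, all 3 of these targets passed in the comparisons in which Hsd11b2 did. Tsc22d3 differed by -1.10 ± 0.13 (SE) on the log2 scale in 25(OH)D against control (adjusted p = 1.18e-08), and by 1.28 ± 0.13 in 25(OH)D+ZK191784 against 25(OH)D (adjusted p = 6.96e-10). Sgk1 differed by -0.67 ± 0.11 and 0.56 ± 0.11 in the same comparisons (adjusted p = 1.01e-05 and 0.000206), and Fkbp5 by -0.43 ± 0.12 and 0.51 ± 0.12 (adjusted p = 0.00802 and 0.00191). The log2 differences in 25(OH)D+BGP against control were -1.29 ± 0.13 for Tsc22d3, -0.75 ± 0.11 for Sgk1 and -0.65 ± 0.12 for Fkbp5 (SE), with edgeR adjusted p-values of 3.94e-10, 1.48e-06 and 8.31e-05. No gene of the 9 passed in the remaining comparisons. The covariate was itself read from the counts, and it raised the number of all genes called. Of 14394 genes tested, 2853 were called in 25(OH)D against control, against 1250 without it. In 25(OH)D+ZK191784 against 25(OH)D 1634 were called, against 508 without it. For 25(OH)D+BGP against control 2680 were called, against 1187 without it. The covariate calls are therefore given as an alternative and not as the result.

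**Figure D3:**
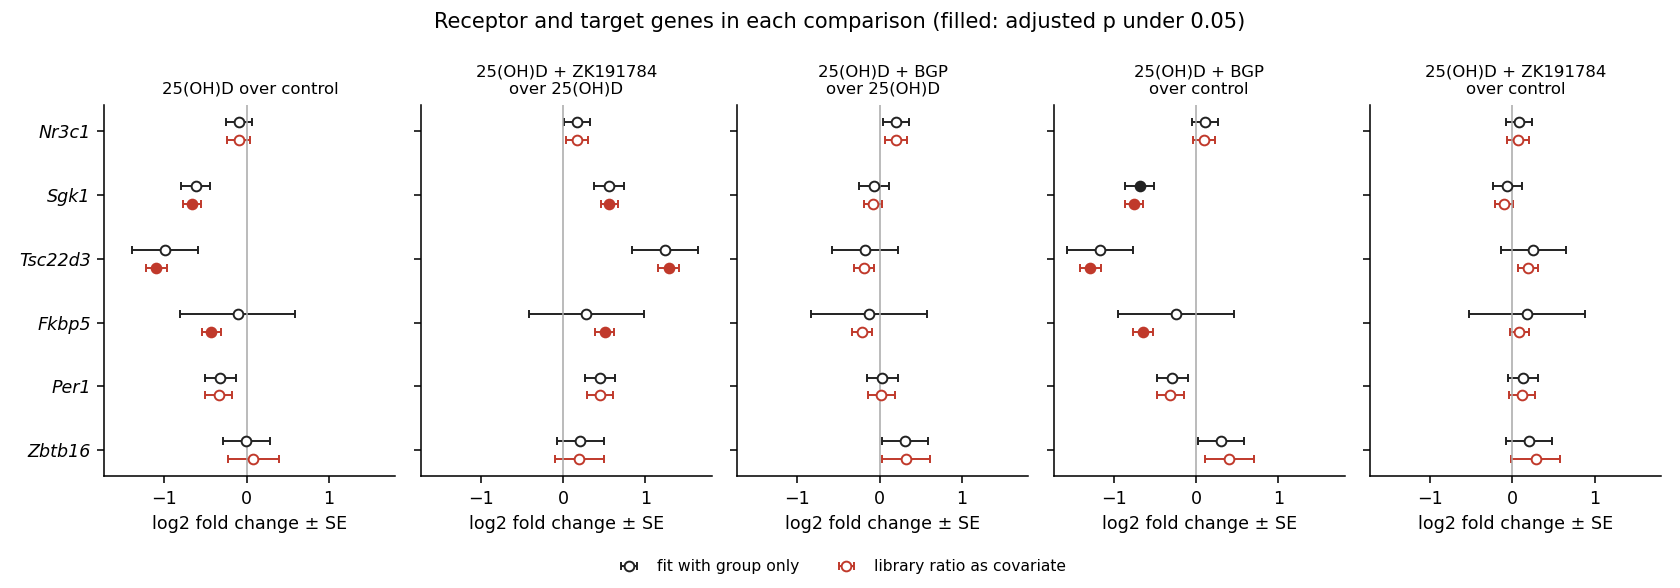
Log2 fold change ± SE of the receptor and 5 target genes in the 5 comparisons (n = 3 libraries per group), from the edgeR fit with group alone and with the library ratio as covariate. Filled points have an adjusted p under 0.05, and with group alone the only filled point is Sgk1 in 25(OH)D+BGP over control.

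The wider set of 40 genes listed as glucocorticoid-induced, the 5 targets above among them, held genes called in both directions. This list and those below were chosen with earlier results of these data known. A share above that of all genes is therefore no test of a list. Of the 30 tested, 6 rose and 3 fell in 25(OH)D against control, which is 30% beside 8.68% of all genes, with a median log2 difference of 0.13 beside -0.05. Tgm2, a transglutaminase that cross-links matrix proteins, rose to 212 ± 34.8 CPM in 25(OH)D, against 4.54 ± 0.72 CPM in control (SD, n = 3 each), and Arl4d, a small GTPase, to 16.4 ± 2.47 CPM, against 1.95 ± 0.70 CPM. Mertk, a receptor kinase for the uptake of dying cells, fell to 158 ± 14.5 CPM in 25(OH)D, against 450 ± 51.0 CPM in control, and Crispld2, a secreted glucocorticoid-induced protein, to 12.6 ± 0.81 CPM, against 44.8 ± 8.15 CPM. Their edgeR adjusted p-values were 3.60e-08, 0.000246, 2.20e-05 and 0.000461.

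With ZK191784 against 25(OH)D alone, 3 of the 30 rose and 3 fell, which is 20% beside 3.53% of all genes. Tgm2 fell to 38.3 ± 3.03 CPM with ZK191784, against 212 ± 34.8 CPM with 25(OH)D alone, and Arl4d to 3.51 ± 1.10 CPM, against 16.4 ± 2.47 CPM. Crispld2 rose to 101 ± 6.0 CPM with ZK191784, against 12.6 ± 0.81 CPM with 25(OH)D alone, and Mertk to 334 ± 36.0 CPM, against 158 ± 14.5 CPM (SD, n = 3 each). Against control, 5 rose and 5 fell in 25(OH)D+BGP, which is 33.3% beside 8.25% of all genes. In 25(OH)D+ZK191784 2 rose against control, which is 6.67% beside 0.723% of all genes, Tgm2 and Crispld2, the rise of Crispld2 being lost without control replicate 1 or 2 or without any 1 library of 25(OH)D+ZK191784. Between 25(OH)D+BGP and 25(OH)D 0 of the 30 were called. DESeq2 called 14 of the set in 25(OH)D against control where edgeR called 9.

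**Figure D4:**
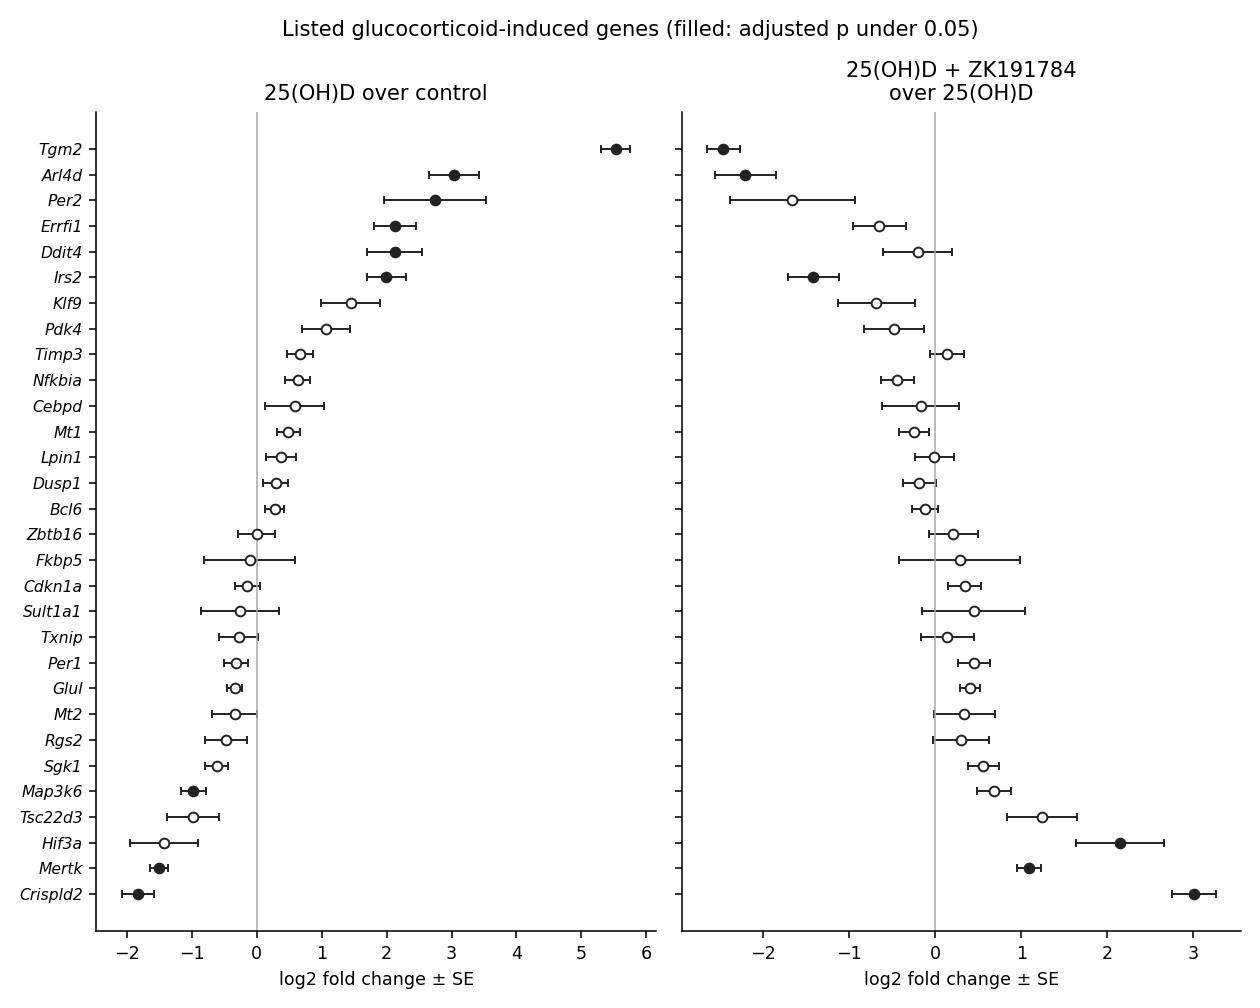
Log2 fold change ± SE of the 30 tested genes of the glucocorticoid-induced list in 25(OH)D over control and in 25(OH)D+ZK191784 over 25(OH)D, both ordered by the first comparison. Filled points have an edgeR adjusted p under 0.05 and lie on both sides of 0 in each panel, with Tgm2 at 5.53 and Crispld2 at -1.83 at the ends of the first.

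Of 17 genes listed as repressed by glucocorticoids 10 were tested, and 2 fell in 25(OH)D against control, which is 20% beside 8.68% of all genes. Tnfrsf11b, the osteoprotegerin gene, measured 5.93 ± 3.12 CPM in 25(OH)D, against 29.1 ± 11.1 CPM in control. Bglap, the osteocalcin gene, measured 311 ± 107 CPM, against 1069 ± 691 CPM (SD, n = 3 each), and is uncertain because it can share reads with near-identical copies. The Bglap call was lost in 6 of 13 alternative analyses, among them those without control replicate 3 or 25(OH)D replicate 2 or 3, with log2 differences of -2.11 to -1.10 and adjusted p-values up to 0.174 over the 13. Both also fell in 25(OH)D+BGP against control, 20% of the list beside 8.25% of all genes, where 0 or 1 passed without control replicate 2 or 3 or any 1 library of 25(OH)D+BGP, and rose in 25(OH)D+ZK191784 against 25(OH)D, 20% beside 3.53%, where without any 1 library of either group neither rise passed edgeR's test. Bglap is also among the osteoblast markers, whose sums are given above. Of these, 5 fell and 1 rose in 25(OH)D against control, which is 75% beside 8.68% of all genes. Against control, 25(OH)D+ZK191784 had 0 of the 10 called.

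Of 17 chaperones and co-chaperones, 2 rose in 25(OH)D against control, Bag1 and Hspa4, by 0.57 ± 0.14 and 0.67 ± 0.17 on the log2 scale, and Dnajb1 fell by 0.56 ± 0.15 (SE, edgeR adjusted p = 0.0226, 0.0294 and 0.0350). These 3 were 17.6% of the list, beside 8.68% of all genes. The count was 0 without 25(OH)D replicate 1 or 2 and 1 without control replicate 1, 2 or 3. Hspa4 rose and Dnajb1 fell in 25(OH)D+BGP against control, which is 11.8% beside 8.25% of all genes and where 0 or 1 passed without control replicate 1 or 3 or any 1 library of 25(OH)D+BGP, and 0 of the 17 were called in the other comparisons. Of 14 coregulators tested only the corepressor Ncor1 was called, in 25(OH)D and in 25(OH)D+BGP, each against control. This is 7.14%, beside 8.68% and 8.25% of all genes. Ncor1 was higher by 0.81 ± 0.17 in 25(OH)D and by 0.70 ± 0.17 in 25(OH)D+BGP (SE, edgeR adjusted p = 0.00962 and 0.0229). The first of these calls was lost without control replicate 1. Leaving out control replicate 1 or 2, or 25(OH)D+BGP replicate 2 or 3, ended the second.

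Hsd11b2, kept by the filter through its high groups, was the only gene called among the 10 tested of 29 listed for steroid metabolism and transport. This was 10% in 25(OH)D against control, beside 8.68% of all genes, and 10% in 25(OH)D+BGP against control, beside 8.25%. In 25(OH)D+ZK191784 against 25(OH)D it was 10% beside 3.53%. Among 4 steroid receptors tested, Vdr rose to 324 ± 39.2 CPM in 25(OH)D+BGP, 382 ± 9.65 CPM in 25(OH)D+ZK191784 and 400 ± 68.7 CPM in 25(OH)D, against 61.1 ± 9.91 CPM in control (SD, n = 3 each). In the list of the mineralocorticoid and Sgk axis, with 10 of 15 genes tested, no gene was called besides Hsd11b2 and Sgk1. The share was 10%, 20% and 10% in these 3 comparisons, in the same order.

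Of 16 clock genes tested, Per1 among them, 2 rose and 2 fell in 25(OH)D against control, which is 25% beside 8.68% of all genes. Csnk1e, a kinase that marks Per proteins for decay, rose by 0.82 ± 0.16 on the log2 scale, and Per2 by 2.74 ± 0.78. Rora and Tef, transcription factors of the clock, fell by 0.57 ± 0.12 and 0.53 ± 0.14 (SE, edgeR adjusted p = 0.00531, 0.0489, 0.00733 and 0.0278). The count of 4 was 2 without control replicate 1 or 3 or without 25(OH)D replicate 1 or 2. The calls of Per2 and Tef were each lost in 8 of 13 alternative analyses, that of Rora in 1 and that of Csnk1e in 0. Adjusted p-values over the 13 reached 0.281 for Per2 and 0.162 for Tef. Per2 also varied widely in 25(OH)D, at 34.0 ± 26.0 CPM (SD, n = 3). Csnk1e also rose in 25(OH)D+BGP against control and Rora and Tef fell, which is 18.8% beside 8.25% of all genes, a count of 3 that was 1 without control replicate 1, and the other comparisons had 0 calls.

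In the family of Fkbp5, 5 of 14 tested genes fell in 25(OH)D against control, which is 35.7% beside 8.68% of all genes, and none rose. Fkbp7 fell to 152 ± 16.7 CPM in 25(OH)D, against 453 ± 112 CPM in control, Fkbp10 to 70.4 ± 7.12 CPM, against 142 ± 20.3 CPM, and Fkbp14 to 31.1 ± 3.42 CPM, against 93.1 ± 30.9 CPM (SD, n = 3 each). Fkbp9 fell by 0.94 ± 0.18 on the log2 scale (SE), and the edgeR adjusted p-values of these 4 genes were 9.05e-05, 0.000904, 0.00304 and 0.00431. These 4 are known as foldases of the secretory pathway, Fkbp10 for collagen, and not as partners of the receptor. Fkbp7 and Fkbp10 rose in 25(OH)D+ZK191784 against 25(OH)D, by 0.96 ± 0.17 and 0.69 ± 0.15 (SE, edgeR adjusted p = 0.00715 and 0.0231), a count of 2 that was 1 without any 1 library of these groups. These 2 were 14.3% of the tested family, beside 3.53% of all genes. Against control 5 fell in 25(OH)D+BGP, which is 35.7% beside 8.25% of all genes, and 0 were called in 25(OH)D+ZK191784 against control.

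In the family of Tsc22d3, with 4 genes tested, Tsc22d1 rose to 511 ± 68.7 CPM in 25(OH)D+BGP and 549 ± 56.3 CPM in 25(OH)D, against 257 ± 55.5 CPM in control. Tsc22d1 was the only one of the 4 called, which is 25%, beside 8.25% and 8.68% of all genes. It fell to 289 ± 29.7 CPM with ZK191784, against 549 ± 56.3 CPM with 25(OH)D alone (SD, n = 3 each, edgeR adjusted p = 0.00905), a call that was lost without 25(OH)D replicate 2 or 25(OH)D+ZK191784 replicate 3. Tsc22d1 and Tsc22d3 lay on opposite sides in each of these comparisons, with Tsc22d3 past edgeR's threshold in none.

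The tested genes most like Hsd11b2 over the 12 libraries, by the root mean square difference of log2 CPM after centring each gene, were Relt at 0.50, Trp53i11 at 0.57 and Afap1l2 at 0.63, where the median of 11403 genes was 2.12. Those genes averaged a log2 CPM of at least 1, leaving out Gm-numbered, Rik and pseudogene symbols. The log2 CPM used a prior count of 2, which largely sets Hsd11b2 in the 25(OH)D+ZK191784 and control libraries, so its distances depend on that prior. Relt averaged 82.1 CPM in 25(OH)D+BGP, 8.30 CPM in 25(OH)D+ZK191784, 96.0 CPM in 25(OH)D and 4.07 CPM in control. The genes most like Sgk1 were Runx3 at 0.10, Mapk14 at 0.12 and Scrn1 at 0.12, where the median was 0.50. Runx3, a transcription factor of the Runx family, averaged 116 CPM in 25(OH)D+BGP, 175 CPM in 25(OH)D+ZK191784, 126 CPM in 25(OH)D and 182 CPM in control.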

How the data were processed

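RNA of 12 libraries of 1 cell line was measured with the QuantSeq 3′ mRNA-seq kit. The values are the authors' deposited counts per gene symbol, made with STAR 2.7.9a and featureCounts of Subread 2.0.3 on mm39, per the submitters' processing notes, which also name DESeq2 1.38.2. Not given in the sources used here were the strand setting, annotation and filters. Overlapping or antisense genes cannot be told apart, and 3′ reads do not separate isoforms or promoters.

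Counts were analysed in R 4.3.3 with edgeR 4.0.16: filterByExpr (minimum count 10, total 15), TMM scaling and a robust quasi-likelihood fit over all 12 libraries with 1 coefficient per group. Rare genes were compared by exact permutation in scipy 1.17.1. The steps were tested on simulated data. Totals of 3318723 to 5170980 counts limit the precision for rare genes. Alternatives were RLE scaling, DESeq2 1.42.0, no filter, a filter of 2 CPM in 3 libraries, a replicate block, the library ratio as covariate, each pair of groups alone, and leaving out each library. The counts in gene lists under these alternatives were added after seeing the data. The 9 genes, 10 gene lists and 7 marker lists were chosen with earlier results of these data known. Beside the 9 genes, the text names up to 4 called genes of smallest p per list and comparison, and the 3 genes most like each called one. Cdh5 and Myog were chosen for naming after their values were seen. A result among the listed steroid receptors is not reported here.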

Additional observations from a re-analysis of the deposited data

How the results depend on the processing

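Genes called in 25(OH)D against control were 1250, and were 2853 with the library ratio as covariate, 763 with the 2 groups alone and 813 to 1266 without 1 library. The called genes among the 9 were 1 there, and were 2 with DESeq2, 2 without the filter, 2 with a filter of 2 CPM, 4 with the covariate and 1 to 2 without 1 library, the second being Sgk1. For 25(OH)D+ZK191784 against 25(OH)D, 508 genes were called, and 797 with DESeq2, 334 with the replicate block, 1634 with the covariate and 269 to 428 without 1 library, with 4 of the 9 called under the covariate. For 25(OH)D+BGP against control, 1187 genes were called, and 2680 with the covariate and 712 with the 2 groups alone. The 2 calls among the 9 were 1 with the replicate block, 1 with the 2 groups alone, 4 with the covariate and 1 to 2 without 1 library, Sgk1 being the one lost (adjusted p = 0.0908 with the block). For 25(OH)D+ZK191784 against control, 104 genes were called, and 264 with DESeq2, 220 without the filter, 56 with the replicate block, 670 with the covariate, 42 with the 2 groups alone and 34 to 119 without 1 library. Between 25(OH)D+BGP and 25(OH)D, 6 genes were called with the covariate and 0 otherwise. Except for the covariate and the block, whose own term is the change, the cause was not tested. The labels do not say whether the replicate numbers pair the samples. Same-numbered libraries correlated at -0.71 to 0.61 in their deviations from the group means. Because 1 axis dominates these deviations, the correlations cannot decide whether numbers mark a shared culture or batch.

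Uncalled log2 differences near 0 changed sign. Zbtb16 in 25(OH)D against control was 0.0076 with RLE, 0.0064 with DESeq2, 0.012 without the filter, 0.0082 with a filter of 2 CPM, 0.082 with the covariate and -0.11 to 0.16 without 1 library. Without 1 library, the ranges in 25(OH)D against control were -0.18 to 0.0039 for Nr3c1 and -0.82 to 0.93 for Fkbp5. Between 25(OH)D+BGP and 25(OH)D they were -0.90 to 0.59 for Fkbp5, -0.40 to 0.095 for Tsc22d3 and -0.0071 to 0.12 for Per1. Fkbp5 ran from -0.15 to 1.00 in 25(OH)D+ZK191784 against 25(OH)D and from -1.0 to 0.81 in 25(OH)D+BGP against control. In 25(OH)D+ZK191784 against control the ranges were -0.26 to 1.23 for Fkbp5, -0.0060 to 0.92 for Tsc22d3, -0.0065 to 0.28 for Per1 and -0.18 to 0.20 for Sgk1. Depth limits Hsd11b1, Nr3c2 and, in 2 groups, Hsd11b2, which rest on few or no counts.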
